A study of Mus musculus with 24 samples.

Results

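The genes described here were grouped under adult neurogenesis and proliferation, and comprise 11 genes of immature neurons and their lineage and 20 genes of cycling cells. Not all of them are confined to such cells: *Tubb3*, *Neurod1* and *Ccnd1*, for example, are also made by mature or non-dividing cells. The list was drawn up by gene name, with earlier results of these data known. All probes whose accession matched one of the 31 symbols were collected (53 of the 56605 unique probes of the array, for 31 of the 23787 named genes), and each gene was read from its brightest probe. In the adult dentate gyrus, neural stem cells of the subgranular zone give rise to dividing progenitors and then to neuroblasts, which leave the cell cycle and mature into granule neurons. Glucocorticoids are known to slow this process when they stay high for days or weeks. The genes of DNA replication and mitosis are shared by all dividing cells, so that in whole tissue they also report on dividing glia and vessel cells.

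Hippocampal RNA came from 48 male Swiss-Webster mice, each measured on its own. The mice entered the experiment at 12 weeks of age and were then kept in individual cages before treatment. For the 12 h of the dark phase, corticosterone-treated animals drank water with corticosterone (100 µg/ml) in 0.45% hydroxypropyl-β-cyclodextrin, and control animals drank water with the same cyclodextrin alone. Animals were killed in hour 1, 5 or 9 of the light phase that followed, with 8 control and 8 corticosterone-treated animals at each hour. According to the paper, each control group consisted of siblings of a treated group, and every group came from several litters. The sample labels do not name the litters, so litter was not part of the tests. Whole hippocampi were used, so dividing and immature cells contribute a small share of each sample, and fewer cells of a type cannot be told apart from less RNA per cell. Each of the 24 arrays carried 1 control animal in Cy3 and 1 corticosterone-treated animal in Cy5. Dyes were never swapped, so a dye effect and a corticosterone effect cannot be told apart at a single hour, whereas a constant dye effect cancels in comparisons between hours. The arrays lay on 3 slides, and every slide held animals of all 6 groups, though not in equal numbers. Slide 1 held 2, 2 and 4 arrays of hours 1, 5 and 9, while slides 2 and 3 each held 3, 3 and 2. Hour and slide were therefore partly tied.

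Values are normalised signals, which can be compared between animals for 1 probe but not between genes. A difference is a log2 fold change with its standard error (SE), and a gene was called changed where the adjusted p of the separate channel test of limma was under 0.05. Of the 31 genes, 26 had a mean signal of 50 or more, and 25 were well above background in all 48 channels. The dim genes were *Neurod4* (mean signal 13.2), *Eomes* (31.2), *Ccnb1* (33.6), *Cdk2* (36.2) and *Top2a* (39.9). *Neurod4*, a proneural transcription factor, was not well above background in any channel. Among markers of hippocampal neurons and of dentate granule cells, all 6 genes of each list were above background in every animal. So were all 5 genes of subventricular zone neuroblasts and 5 of 6 genes of the thalamus and habenula. Detection alone therefore does not show which tissue was sampled.

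At the first hour, corticosterone-treated animals had higher signals of 2 of the 31 genes and lower signals of 4, beside 17.5% of all probes called (8.85% higher and 8.67% lower). At the fifth hour the counts were 2 higher and 6 lower, beside 18.1% of all probes (8.62 and 9.47%). The ninth hour again had 2 higher and 6 lower, beside 14% of all probes (7.01 and 6.97%). In percent, 19.4, 25.8 and 25.8 of the genes were called at hours 1, 5 and 9. When testing was limited to probes with a signal of 50 or more, 5, 6 and 7 of 26 genes were called, beside 24.3, 23.6 and 16.5% of all such probes, so that the shares at the first and the fifth hours did not exceed the background of bright probes. The median difference of the 31 genes was -0.02, -0.06 and -0.04 on the log2 scale, and that of all probes was -0.00092, 0.00095 and 0.00063. In all, 13 genes were called at 1 hour or more and none at all 3 hours, beside 29.8% and 5.91% of all probes. Over all 12 comparisons the genes had 34 calls, of which 7 held in every other setting tried.

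Immature neuron genes and cycling cell genes were set side by side. Among the 11 immature neuron genes, 1 was called at the first hour, 2 at the fifth and 2 at the ninth, including *Neurod4* at the fifth hour, where it was not above background. Of the 20 cycling cell genes, 5, 6 and 6 were called at these hours (25, 30 and 30%), against 9.09, 18.2 and 18.2% of the immature neuron genes and 17.5, 18.1 and 14% of all probes. Among probes with a signal of 50 or more, 4, 5 and 4 of 17 cycling cell genes and 1, 1 and 3 of 9 immature neuron genes were called, so that the order of the lists turned at the ninth hour. In the test on log ratios within arrays, which pairs the 2 animals of an array, 1, 0 and 2 immature neuron genes and 3, 8 and 5 cycling genes were called. That test called 18.2, 18.6 and 13.8% of all probes. Both directions occurred among cycling cell genes at each hour. Their median differences were 0.006, -0.07 and -0.06, and those of the immature neuron genes were -0.03, -0.06 and 0.0042. The difference between the lists was not tested.

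**Figure D1:**
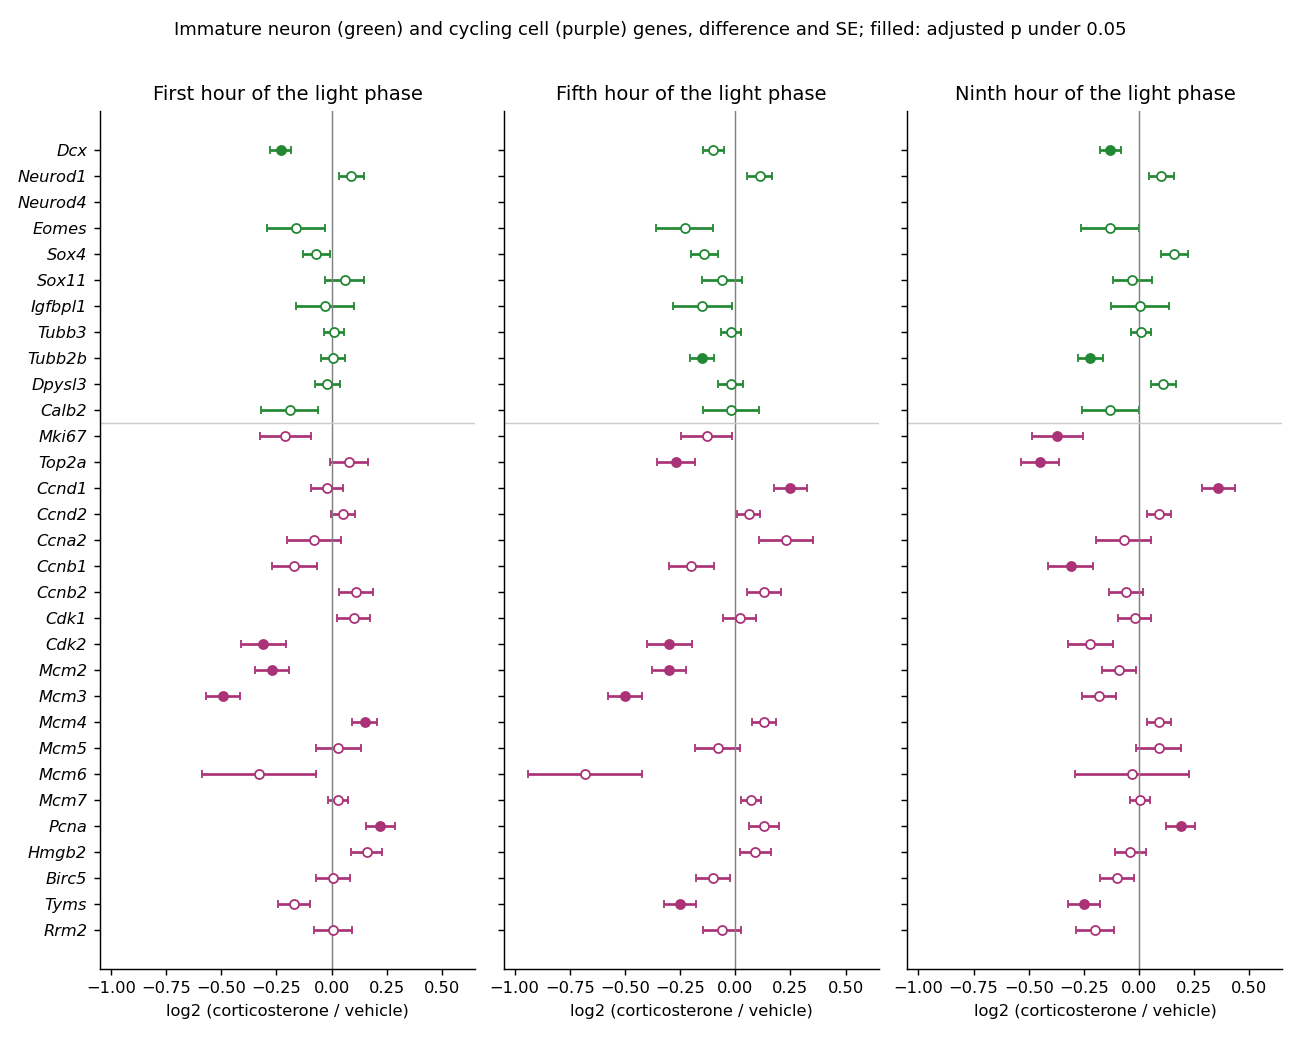
Difference between corticosterone-treated and control animals for each gene at each hour (x axis, log2 ratio; points with SE bars; filled points, adjusted p under 0.05; green, immature neuron genes; purple, cycling cell genes). *Neurod4* is not drawn because it was not above background. *Mcm3* reached -0.49 and -0.5 at the first and the fifth hours and -0.18 at the ninth, whereas *Ccnd1* went from -0.02 to 0.36 and *Top2a* from 0.08 to -0.45.

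Promoters of 3 of the cycling genes are shown to set genes that were lower early (*Mcm3* and *Mcm2*) beside one that was lower later (*Top2a*). *Mcm3* and *Mcm2* encode subunits of the MCM2-7 helicase, the ring that opens DNA at replication origins, while *Top2a* encodes topoisomerase IIα, which untangles sister chromatids in mitosis. Each window runs 5′ to 3′ over 300 bases, from 250 before to 50 after a start site of the gene, and comes from RefSeq on GRCm38.p6. For *Top2a* this site was not the outermost base of the gene. Capitals mark matches on either strand to E2F-type letters (TTTCCCGC, TTTGGCGC, TTTCGCGC or TTTGCCGC), to the letters TTTGAA of the cell cycle homology region, and to CCAAT. No matches overlapped in these windows. *Mcm3* lies at chr1:20820263-20820562 (minus strand), *Mcm2* at chr6:88898731-88899030 (minus strand) and *Top2a* at chr11:99024140-99024439 (minus strand).
Mcm3: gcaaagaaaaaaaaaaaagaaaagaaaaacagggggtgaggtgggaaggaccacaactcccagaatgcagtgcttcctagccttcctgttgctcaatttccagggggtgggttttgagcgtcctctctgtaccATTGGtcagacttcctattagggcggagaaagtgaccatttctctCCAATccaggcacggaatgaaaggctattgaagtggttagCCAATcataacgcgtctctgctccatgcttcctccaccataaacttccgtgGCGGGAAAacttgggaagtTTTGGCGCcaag
Mcm2: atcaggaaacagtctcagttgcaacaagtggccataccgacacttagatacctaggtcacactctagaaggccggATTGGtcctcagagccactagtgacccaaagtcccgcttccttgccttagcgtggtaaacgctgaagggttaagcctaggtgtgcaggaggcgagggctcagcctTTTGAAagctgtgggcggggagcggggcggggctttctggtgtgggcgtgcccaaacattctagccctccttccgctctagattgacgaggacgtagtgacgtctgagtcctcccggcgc
Top2a: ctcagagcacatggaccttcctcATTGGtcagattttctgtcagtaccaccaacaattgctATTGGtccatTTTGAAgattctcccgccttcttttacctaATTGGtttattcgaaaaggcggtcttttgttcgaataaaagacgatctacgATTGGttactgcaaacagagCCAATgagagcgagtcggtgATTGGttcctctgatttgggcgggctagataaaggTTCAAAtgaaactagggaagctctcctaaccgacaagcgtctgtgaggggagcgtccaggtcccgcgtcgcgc

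E2F is the transcription factor family of the G1 to S transition, while the cell cycle homology region and CCAAT boxes are typical of genes expressed in G2 and mitosis. The *Mcm3* window held 2 E2F-type matches, both after the start (first bases at 20 and 39), and 3 CCAAT boxes. The *Top2a* window held none of the E2F-type letters, 2 matches to TTTGAA and 6 CCAAT boxes, and that of *Mcm2* held 1 TTTGAA and 1 CCAAT. Windows were at hand for 23 of the 31 genes. E2F-type letters stood in the windows of 6 of the 16 cycling genes (*Cdk1*, *Cdk2*, *Mcm3*, *Mcm5*, *Mcm6* and *Mcm7*) and of 0 of the 7 immature neuron genes, and in 2.26% of all 32851 promoter windows. TTTGAA was found for 6 cycling genes and for *Sox11*, beside 17.9% of all windows, and CCAAT for 14 cycling and 5 immature neuron genes, beside 37.4%. The palindromic glucocorticoid response element, with a spacer of any 3 bases, was in no window of the 23 genes and in 0.00913% of all windows. These matches describe letters in a short window and not binding.

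The MCM helicase genes were read first. *Mcm3* had the lowest values relative to control of the called genes among the 31. At the first hour, control animals ranged from 295.9 to 386.5 (median 320.1) and corticosterone-treated animals from 200.7 to 281.9 (median 227). Every treated animal was thus below every control animal. The difference was -0.49 (SE 0.0772, adjusted p = 5.3e-06, limma), with treated animals lower on 8 of 8 arrays. At the fifth hour, control signals were 294.7 to 483 (median 356.9) and treated signals 228.2 to 298.8 (median 252.6), and the groups overlapped only at their edges. The difference at this hour was -0.5 (SE 0.0772, adjusted p = 3.5e-06). By the ninth hour the treated group had come up to 268.2 to 378.4 (median 333), beside 285.8 to 426 (median 375.5) in control, and the difference of -0.18 (SE 0.0772, adjusted p = 0.097) was no longer called, although treated animals were lower on 8 of 8 arrays.

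Within the treated animals, *Mcm3* rose from the first to the ninth hour by 0.48 (SE 0.0901, adjusted p = 0.00025) and from the fifth to the ninth by 0.38 (adjusted p = 0.02). In control animals the first to ninth hour difference was 0.16 (adjusted p = 0.5), and the change of the corticosterone effect between these hours, 0.32 (SE 0.109), did not pass (adjusted p = 0.28). On slides 1, 2 and 3 the first hour difference was -0.22, -0.63 and -0.53. A further *Mcm3* probe above background in all channels (mean signal 185.2) gave -0.31 at the first hour (adjusted p = 0.0023) and -0.18 at the fifth (adjusted p = 0.07). The third *Mcm3* probe, with a mean signal of 38, gave 0.0043, -0.18 and 0.04 at the 3 hours and was not called.

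*Mcm2* followed a similar course. First hour signals were 131.6 to 193.3 (median 153.4) in control and 105.2 to 154.5 (median 133.4) in treated animals, with wide overlap. By the fifth hour they were 180.4 to 216.6 (median 185.3) and 122.7 to 182.8 (median 156.8). The differences were -0.27 (SE 0.0782, adjusted p = 0.011) and -0.3 (SE 0.0782, adjusted p = 0.0036), with treated animals lower on 6 and on 8 of 8 arrays. The first hour call was lost without replicate 8 of that hour and in 3 of 14 other settings, the deposited log ratios included. At the ninth hour the groups spanned 179 to 216.6 and 148 to 217.6, and the difference was -0.09 (adjusted p = 0.45). Treated animals rose by 0.48 from the first to the ninth hour (adjusted p = 0.00028), and control animals differed by 0.3 (adjusted p = 0.1). On slide 1, which held only 2 arrays of the first hour, the difference there was 0.11, against -0.42 and -0.37 on the other slides.

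Of the other subunits, only *Mcm4* was called. *Mcm4* was higher in treated animals at the first hour by 0.15 (SE 0.0561, adjusted p = 0.048), on 8 of 8 arrays, with 0.13 and 0.09 at the later hours (adjusted p = 0.084 and 0.24). The first hour call was lost without replicate 8 of that hour and in 8 of 14 other settings, the test on log ratios within arrays included. *Mcm5* gave 0.03, -0.08 and 0.09, and *Mcm7* 0.03, 0.07 and 0.0044, with no call. *Mcm6* varied more between animals than any other of the 31 genes, with a within-group SD of 0.64 on the log2 scale beside a median of 0.18. Its signals ran from 231.2 to 1800.2, with 20 of the 48 animals at 835.9 or below and 28 at 1000.1 or above. Its differences were -0.33, -0.68 and -0.03 at hours 1, 5 and 9. At the fifth hour the median was 1324 in control and 609 in treated animals, and the difference there (SE 0.258), the widest among the 31 genes, did not pass (adjusted p = 0.052). Differences between subunits were not tested. The *Mcm6* signal also moved with the slide: control medians were 1418 on slide 1, 1090.2 on slide 2 and 772.3 on slide 3.

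**Figure D2:**
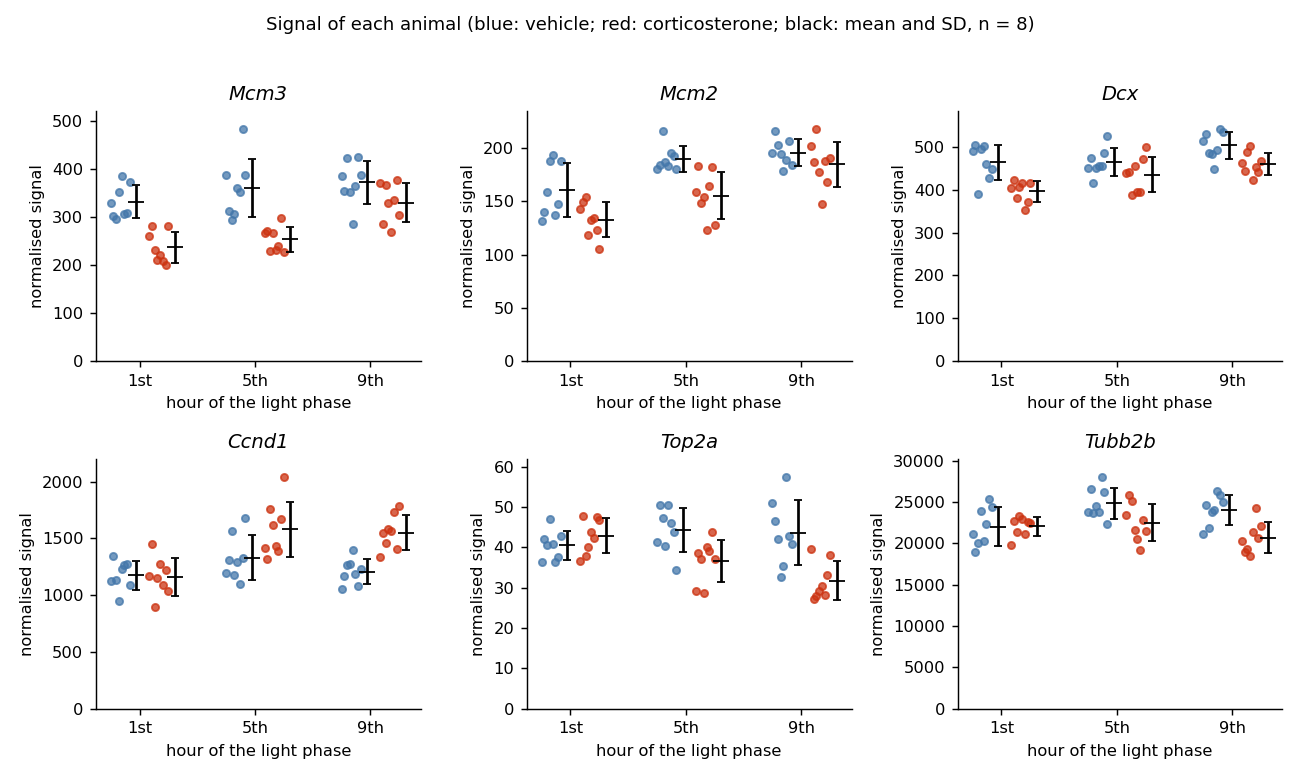
Normalised signal (y axis, from 0) of each animal for 6 called genes at the 3 hours (blue, control; red, corticosterone-treated; black, mean and SD of 8 animals). The treated *Mcm3* signals of the first hour (200.7 to 281.9) all sit below the control signals, and the treated *Dcx* signals of the ninth hour (424 to 502.3) all sit above those of the first (353.7 to 422.4).

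*Pcna*, the sliding clamp of DNA polymerase, went the other way from *Mcm3*. First hour signals were 2939 to 3491.6 (median 3109.8) in control and 3455.1 to 3991.5 (median 3608.9) in treated animals, so that the groups overlapped only at their edges. The difference was 0.22 (SE 0.0658, adjusted p = 0.01) at the first and 0.19 (adjusted p = 0.034) at the ninth hour, when signals were 3057 to 3626.3 and 3439 to 4036.8. In between, at the fifth hour, it was 0.13 (adjusted p = 0.14). Treated animals were higher on 8 of 8 arrays at each hour. The fifth hour held 1 array, replicate 7, on which both animals were far below the rest (2003.5 in control and 2027.8 in treated). Without this array *Pcna* was called at the fifth hour too, while *Tubb2b*, *Cdk2* and *Neurod4* no longer were. The array also had 276 probes with outlier spots, against 80 to 198 on the other arrays. Its share of Cy5 spots above background was 64%, against 66.8 to 73.5%.

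*Tyms* and *Rrm2* supply deoxynucleotides, as thymidylate synthase and as a subunit of ribonucleotide reductase. *Tyms* was lower in treated animals at the fifth hour (-0.25, SE 0.0717, adjusted p = 0.008) and at the ninth (-0.25, adjusted p = 0.011). Ninth hour signals ran from 174.8 to 215.5 (median 192.7) in control and from 142.7 to 186.8 (median 160.7) in treated animals, and treated animals were lower on 8 of 8 arrays. At the first hour the difference was -0.17 (adjusted p = 0.081), and 1 treated animal, at 248.9, stood apart from the other treated animals, whose highest was 180.5. Without the array of this animal, *Tyms* was called at the first hour, while *Mcm2*, *Mcm4* and *Cdk2* were not. *Rrm2* was not called between treatments (0.007, -0.06 and -0.2), but fell in treated animals from the first to the ninth hour (122.2 to 95.6 on average, log2 difference -0.34, adjusted p = 0.031). The same step in control animals was -0.14 (119.8 to 109.2, adjusted p = 0.66), and the *Rrm2* call was lost without replicate 8 of the first hour and in 4 of 12 other settings.

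*Ccnd1* encodes cyclin D1, which drives cells from G1 towards S phase and is also made by non-dividing cells. Its groups coincided at the first hour, at 947.2 to 1346.8 (median 1183.2) in control and 892.9 to 1446.9 (median 1161.8) in treated animals. By the ninth hour control animals were at 1058.2 to 1396.2 (median 1207.9) and treated animals at 1333 to 1783.8 (median 1555.6). The 2 groups then overlapped only at their edges. *Ccnd1* was higher in treated animals at the fifth hour by 0.25 (SE 0.074, adjusted p = 0.011) and at the ninth by 0.36 (SE 0.074, adjusted p = 0.00037), on 8 of 8 arrays at both. Between the first and the ninth hour its effect changed by 0.38 (SE 0.105, adjusted p = 0.043), with 0.23, 0.36 and 0.58 on slides 1, 2 and 3. This change was not called without replicate 7 of the fifth hour or without replicate 8 of the first, the 2 arrays left out one at a time. It was also lost in 6 of 14 other settings, among them the fit with the slide as a block. *Ccnd2*, cyclin D2, which progenitors of the adult dentate gyrus depend on, gave 0.05, 0.06 and 0.09 with no call.

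*Top2a* showed the opposite course, at signals near background. First hour signals were 36.3 to 47 in control and 36.7 to 47.9 in treated animals. At the ninth hour they were 32.7 to 57.4 (median 42.6) and 27.2 to 39.6 (median 29.8), and 4 of the 8 treated animals were well above background. The differences were 0.08 (adjusted p = 0.6), -0.27 (SE 0.0851, adjusted p = 0.021) and -0.45 (SE 0.0851, adjusted p = 0.00039) at hours 1, 5 and 9, and treated animals were lower on 8 of 8 arrays at the ninth. Over the other settings the differences of the later hours ran from -0.62 to -0.12 and from -1.04 to -0.19. From the first to the ninth hour the effect changed by -0.53 (SE 0.12, adjusted p = 0.02), and by -0.57, -0.55 and -0.46 on slides 1, 2 and 3. Of all probes, 0.827% were called in this comparison, and of the 31 genes only *Ccnd1* and *Top2a*. Neither change was called when any 1 slide was left out, and that of *Top2a* was -0.23 and not called from the deposited log ratios (adjusted p = 0.054), -0.26 without background correction and -1 with the scanner's processed signals. By limma, 0 of the 31 genes were called for a change of effect from the first to the fifth or from the fifth to the ninth hour, while 0.0389% and 0.0830% of all probes were called. At an unadjusted p under 0.05, 5 and 2 of the 31 passed, beside 2530 and 2934 of all 56605 probes.

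Other mitotic genes were weaker or absent from the calls. *Mki67*, the classic marker of proliferating cells, was lower in treated animals at the ninth hour, with signals of 48.6 to 64.6 (median 57.3) against 59.5 to 89.9 (median 76.8) in control. The difference was -0.37 (SE 0.116, adjusted p = 0.015), on 8 of 8 arrays, after -0.21 and -0.13 at the earlier hours (adjusted p = 0.16 and 0.42), and the ninth hour difference ran from -0.5 to -0.21 over the other settings. *Ccnb1*, cyclin B1, which starts mitosis, was lower at the ninth hour (-0.31, SE 0.102, adjusted p = 0.039), with signals of 27.3 to 43.4 in control and 23.4 to 35.8 in treated animals. Only 2 of 8 control and 7 of 8 treated animals were well above background for *Ccnb1* there, so this value rests on signals at the limit of detection. It ran from -0.54 to -0.1 over 13 other settings and was not called in 7 of them, the test on log ratios within arrays included. *Ccnb2* was not called between treatments but fell in treated animals from the first to the ninth hour (log2 difference -0.35, adjusted p = 0.0073); the difference in control animals was -0.18 (adjusted p = 0.42). *Cdk2*, the S phase kinase, was dim, at 32.6 to 43.4 in control and 24.1 to 36.5 in treated animals of the first hour, and was lower there (-0.31, SE 0.102, adjusted p = 0.042) and at the fifth hour (-0.3, adjusted p = 0.026). Over the other settings these differences ran from -0.64 to -0.12 and from -0.59 to -0.13, and the calls were lost without replicate 8 of the first hour and replicate 7 of the fifth, respectively. The first hour call was also lost in the test on log ratios within arrays.

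*Cdk1*, *Ccna2* and *Birc5*, which act in S phase and mitosis, were not called in any of the 12 comparisons. For *Hmgb2*, a chromatin protein of dividing cells and neural stem cells, the probes disagreed. Its brightest probe (mean signal 619.7) gave 0.16, 0.09 and -0.04 with no call, while a second (mean signal 211.5) was lower at the fifth hour (-0.35, adjusted p = 0.00055) and at the ninth (-0.33, adjusted p = 0.0018). Another (mean signal 440.3) was lower at the ninth hour alone (-0.29, adjusted p = 0.021), and the last was not called. The rule of the brightest probe therefore decides whether *Hmgb2* counts as changed.

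**Figure D3:**
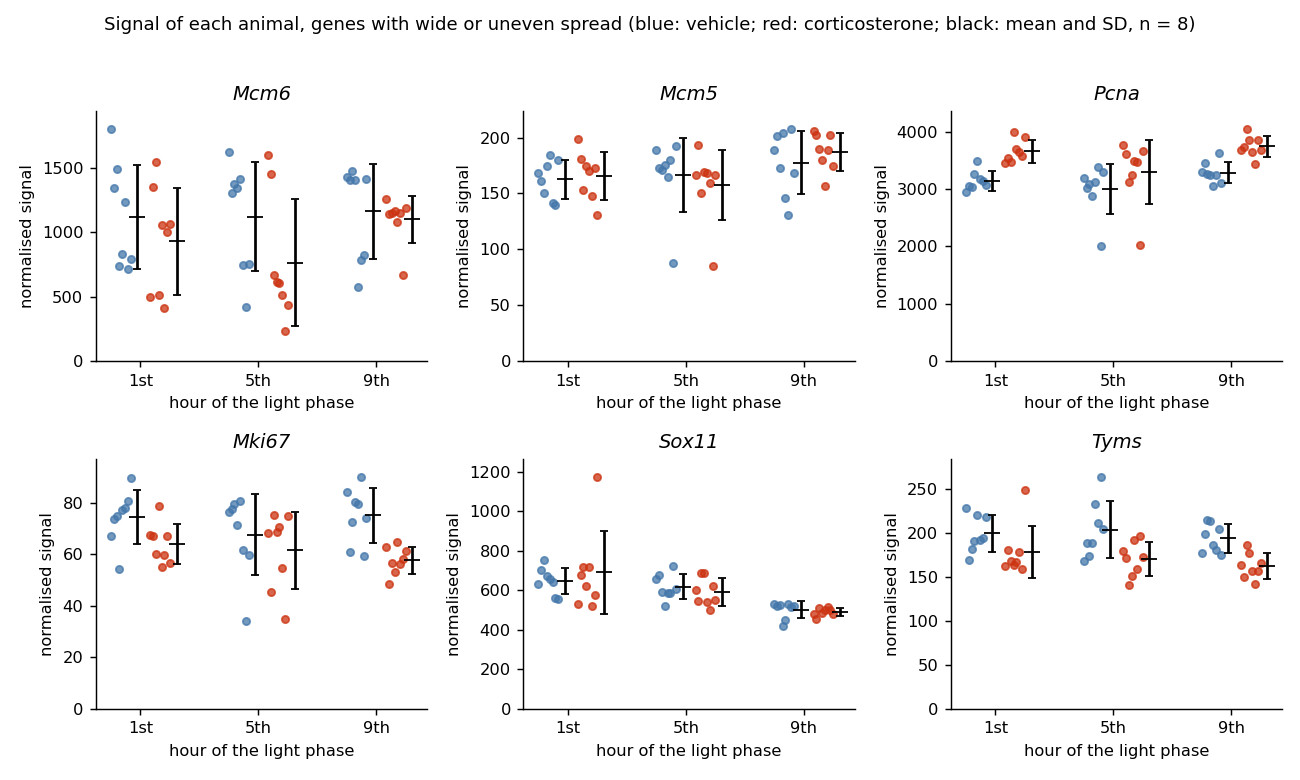
Normalised signal (y axis, from 0) of each animal for 6 genes with a wide or uneven spread (blue, control; red, corticosterone-treated; black, mean and SD of 8 animals). *Mcm6* spans 231.2 to 1800.2, the fifth hour array of replicate 7 is lowest for *Mcm5* (87.8 and 85.4) and *Pcna* in both groups, and 1 treated animal of the first hour is highest for *Sox11* (1173.2) and *Tyms* (248.9).

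Among immature neuron genes, *Dcx* encodes doublecortin, the microtubule protein that labels neuroblasts and young neurons. First hour signals were 389.8 to 504.7 (median 475.4) in control and 353.7 to 422.4 (median 404.7) in treated animals. Treated animals were lower on 8 of 8 arrays, with differences of -0.27, -0.2 and -0.23 on slides 1, 2 and 3. The difference was -0.23 (SE 0.0475, adjusted p = 0.00025), then -0.1 at the fifth hour (adjusted p = 0.13) and -0.13 at the ninth (adjusted p = 0.038), where the call was lost in 6 of 14 other settings. In treated animals *Dcx* rose from the first to the ninth hour by 0.22 (SE 0.0554, adjusted p = 0.0082), to 424 to 502.3, with no overlap between these hours. In control animals the same step was 0.12 (adjusted p = 0.4), and the change of the effect was 0.1 (adjusted p = 0.88). A second, dim *Dcx* probe (mean signals of 35 and 41.3 at the ninth hour) was also lower at that hour (-0.23, adjusted p = 0.047), with 15 of 48 channels above background.

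*Tubb2b*, a β-tubulin of growing neurons, was lower at the ninth hour and, less stably, at the fifth. Its first hour difference was 0.0055 (adjusted p = 0.96), followed by -0.15 (SE 0.0555, adjusted p = 0.043) at the fifth hour. The fifth hour call was lost without the array of replicate 7. It was also lost in 6 of 14 other settings, the test on log ratios within arrays included. Over the other settings the difference ran from -0.19 to -0.07. At the ninth hour signals were 21136.7 to 26328 (median 24356.1) in control and 18530.7 to 24314.4 (median 20532.2) in treated animals, and the difference was -0.22 (SE 0.0555, adjusted p = 0.003), on 8 of 8 arrays. *Tubb3*, the pan-neuronal β-tubulin, gave 0.01, -0.02 and 0.01 over the same hours.

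*Sox11*, a transcription factor of newborn neurons, did not differ between treatments by the test (0.06, -0.06 and -0.03) but fell over the light phase in treated animals, from a mean of 692.1 to 490.7 (log2 difference -0.45, SE 0.104, adjusted p = 0.004). In control animals the means were 647.9 and 501.8 (-0.37, adjusted p = 0.089), and again no ninth hour animal overlapped a first hour animal. The treated mean of the first hour held 1 animal at 1173.2, where the next was at 720.4. The second *Sox11* probe also fell in treated animals (-0.38, adjusted p = 0.046). *Sox4*, its close relative, gave -0.07, -0.14 and 0.16, with adjusted p of 0.077 and 0.055 at the later hours.

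The remaining genes of the lineage were not called. *Neurod1*, a bHLH factor of neuronal differentiation that mature granule cells also make, gave 0.09, 0.11 and 0.1, and was higher in treated animals on 6 of 8 arrays at each hour. *Eomes*, the factor of intermediate progenitors, gave -0.16, -0.23 and -0.13 at signals near background (11 of 48 channels above it). *Calb2* (calretinin) gave -0.19, -0.02 and -0.13, and *Igfbpl1* -0.03, -0.15 and 0.0042. *Dpysl3*, a protein of growing axons, gave -0.02, -0.02 and 0.11, and was higher in treated animals on 7 of 8 arrays at the ninth hour (adjusted p = 0.18). Of the 31 genes, 15 were called in none of the 12 comparisons.

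Changes along the light phase were then read within each treatment. In control animals, none of the 31 genes was called between any pair of hours by limma, beside 0.00530, 0.0336 and 0.537% of all probes from the first to the fifth, the fifth to the ninth and the first to the ninth hour. At an unadjusted p under 0.05, 5, 4 and 10 of the 31 passed in these, beside 4078, 3587 and 5801 of all 56605 probes. In treated animals, 8 genes were called between the first and ninth hours, 4 higher (*Dcx*, *Mcm2*, *Mcm3* and *Ccnd1*) and 4 lower (*Sox11*, *Top2a*, *Ccnb2* and *Rrm2*), beside 4.02% of all probes (2.21% higher and 1.82% lower). *Ccnd1* alone was called from the first to the fifth hour (0.44, adjusted p = 0.0019; 0.546% of all probes) and *Mcm3* alone from the fifth to the ninth (0.661% of all probes). At an unadjusted p under 0.05 (limma), 7, 10 and 10 of the 31 passed in treated animals from the first to the fifth, the fifth to the ninth and the first to the ninth hour. Beside them, 5394, 5835 and 8332 of all 56605 probes passed. From the first to the ninth hour, 10 of the 31 thus passed in both treatments. These comparisons stay within 1 dye.

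Genes of the same cells could vary together from animal to animal. Deviations from the hour mean were correlated across the 24 control and, separately, the 24 treated animals, for 10 immature neuron genes with *Dcx* and 19 cycling genes with *Top2a*, which makes 29 pairs per treatment. No pair passed after Benjamini-Hochberg adjustment. The highest Pearson correlation was that of *Dcx* with *Calb2* in control animals (r = 0.54, permutation p = 0.0058, adjusted p = 0.17). Its Spearman rho was 0.43 (permutation p = 0.036, adjusted p = 0.35). The Pearson r of this pair was 0.35 without the 2 animals farthest from the *Dcx* median, and -0.43, 0.63 and 0.62 within slides 1, 2 and 3. By Spearman, *Dcx* with *Sox4* in treated animals was highest (rho = 0.54, permutation p = 0.0076, adjusted p = 0.22), with a Pearson r of 0.40. *Dcx* with *Dpysl3* gave r = 0.36 in control and 0.43 in treated animals (permutation p = 0.084 and 0.035, adjusted p = 0.41 and 0.65; rho = 0.34 and 0.49, permutation p = 0.11 and 0.016, adjusted p = 0.38 and 0.23), and 0.46 and 0.70 without the 2 farthest animals. The median r with *Dcx* was 0.23 in control and 0.20 in treated animals, and that with *Top2a* was 0.03 and -0.05. *Mki67* with *Top2a*, both markers of dividing cells, gave 0.10 and -0.22 (permutation p = 0.62 and 0.31, adjusted p = 0.88 and 0.71; rho = 0.25 and -0.12, permutation p = 0.24 and 0.59, adjusted p = 0.54 and 0.89). The *Top2a* signal was dim (mean 39.9).

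**Figure D4:**
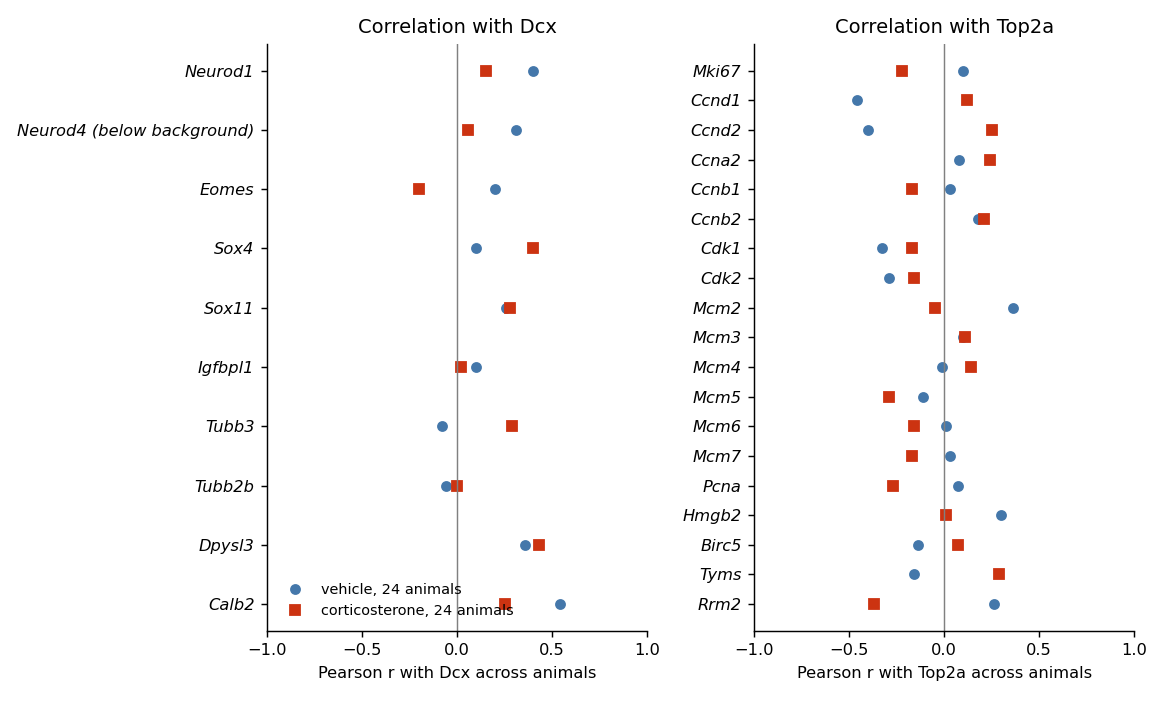
Pearson correlation across 24 animals per treatment of immature neuron genes with *Dcx* (left) and of cycling genes with *Top2a* (right), after removal of the hour means (blue circles, control; red squares, corticosterone-treated). Correlations with *Dcx* lie between -0.20 and 0.54 and those with *Top2a* between -0.46 and 0.36, and none passed adjustment.

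Wider lists place these genes in their pathway. Of 18 stem and progenitor genes, 1 was higher and 9 lower in treated animals at the first hour, 1 higher and 7 lower at the fifth, and 1 higher and 1 lower at the ninth. The share called was thus 55.6, 44.4 and 11.1%, against 17.5, 18.1 and 14% of all probes, and the median difference was -0.22, -0.13 and -0.04. The largest first hour differences were those of *Fabp7* (-0.73, adjusted p = 4e-09), a lipid carrier of radial glia, *Hes5* (-0.66, adjusted p = 4.2e-07), a Notch target, and *Prom1* (0.56, adjusted p = 6.8e-05). Later, at the fifth hour, *Lpar1* (-0.61, adjusted p = 1.8e-07), a lysophosphatidic acid receptor, was lower. *Prom1* stayed higher at the fifth and ninth hours (0.58 and 0.41, adjusted p = 3.2e-05 and 0.0052). From the first to the ninth hour, the effect changed upwards for 5 of the 18 (0.827% of all probes were called in either direction), including *Hes5* (0.87, adjusted p = 1.2e-05), *Fabp7* (0.64, adjusted p = 0.00058) and *Sox2* (0.52, adjusted p = 0.00038). As background, astrocytes also express most genes of this list, and whole hippocampus RNA does not separate stem cells from astrocytes or from other cells.

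Among 24 other neuroblast and immature neuron genes, 2, 1 and 2 were higher and 1, 1 and 0 lower at hours 1, 5 and 9 (12.5, 8.33 and 8.33% of the list, below the share of all probes at each hour), with medians of -0.01, -0.0057 and -0.0046. *Elavl4*, a neuronal RNA-binding protein, was higher at all 3 hours (0.26, 0.31 and 0.35, adjusted p = 0.0099, 0.002 and 0.00094), while *Sema3c* was higher (0.22, adjusted p = 0.014) and *Fxyd6* lower (-0.25, adjusted p = 0.023) at the first hour. *St8sia2*, which adds polysialic acid to NCAM on neuroblasts, was lower at the fifth (-0.37, adjusted p = 0.023), and *Neurog2*, a proneural factor with a mean signal of 43.1, was higher at the ninth (0.66, adjusted p = 0.011). Of 41 other cell cycle genes, 5, 4 and 1 were higher and 2, 8 and 3 lower. These are 17.1, 29.3 and 9.76% of the list, against 17.5, 18.1 and 14% of all probes. *Cdt1*, which loads the MCM helicase onto origins, was lower at the first and the fifth hours (-0.47 and -0.37, adjusted p = 0.00032 and 0.0041). *Ezh2*, the histone methyltransferase of dividing cells, was lower at the ninth (-0.26, adjusted p = 0.00097). *Ccnd3*, cyclin D3, was higher at the first hour (0.21, adjusted p = 0.00019) and lower at the ninth (-0.13, adjusted p = 0.019), and its effect changed by -0.34 between them (adjusted p = 0.00016). *Aurkb*, a mitotic kinase, gave 0.5 at the fifth hour (adjusted p = 0.02) but was above background in 11 of 48 channels only.

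Of 15 cell cycle inhibitors, 3 were higher and 1 lower at the first hour, and 4 higher and 2 lower at each of the later hours. These are 26.7, 40 and 40% of the list, against 17.5, 18.1 and 14% of all probes. The lower ones, named after their values were seen, were *Rb1*, the retinoblastoma protein, at all 3 hours (-0.12, -0.15 and -0.12, adjusted p = 0.015, 0.0023 and 0.025) and *Gadd45g* at the fifth and the ninth (-0.17 at both, adjusted p = 0.011 and 0.016). *Cdkn1a*, the p21 inhibitor of cyclin-dependent kinases, rose most. Its first hour signals were 119.3 to 167.3 (median 151.1) in control and 249.9 to 1162 (median 680.3) in treated animals, with no overlap. The difference was 2.06 (adjusted p = 3.5e-12) at the first and 1.1 (adjusted p = 5.3e-05) at the fifth hour, and by the ninth the ranges were 98.9 to 146.3 and 105.5 to 165.5. *Rbl2*, a pocket protein that holds E2F targets silent, was higher at all 3 hours (0.31, 0.4 and 0.24), and *Cdkn1b* at the fifth and ninth (0.21 and 0.35, adjusted p = 0.027 and 0.00021).

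**Figure D5:**
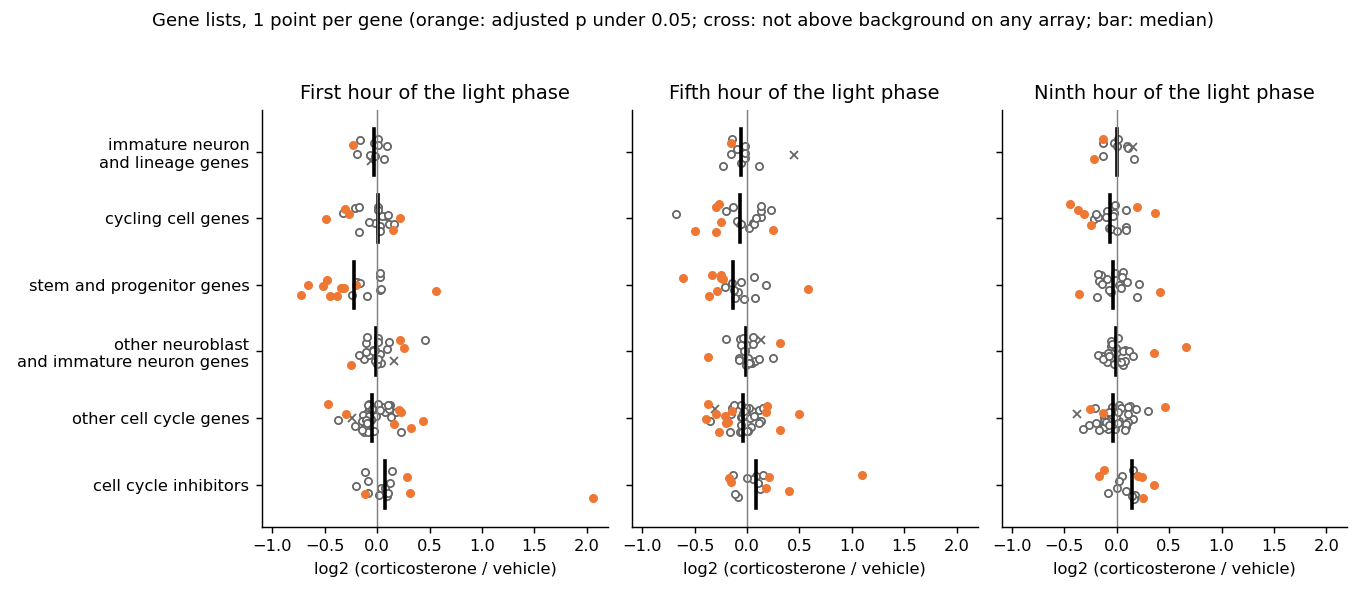
Log2 difference between corticosterone-treated and control animals (x axis) for each gene of 6 lists at the 3 hours (orange, adjusted p under 0.05; open, not called; crosses, not above background in any channel; bars, list medians). The stem and progenitor genes sit at a median of -0.22 at the first hour and -0.04 at the ninth, the cycling genes spread to both sides, and *Cdkn1a* stands at 2.06 and 1.1 at the first and the fifth hours.

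Genes that mark other cells were also read, and their part in the results above was not tested. Beside the counts below, 17.5, 18.1 and 14% of all probes were called at the 3 hours. The endothelial list had 66.7, 50 and 33.3% called and the microglial list 50, 33.3 and 16.7%, whereas oligodendrocyte precursor genes had 14.3% at each hour and thalamus and habenula genes 16.7, 0 and 16.7%. Of 6 endothelial genes, 1 was higher and 3 lower at the first hour, and their summed mean signal was 7416.7 in treated and 10082 in control animals, against 8555.3 and 9339.6 at the ninth. At the fifth they were 8480.7 and 10358.3, with 1 gene higher and 2 lower, and at the ninth 1 was higher and 1 lower. The median endothelial difference was -0.25, -0.11 and 0.11 at the 3 hours. At the ninth, 4 of the 6 genes were higher in treated animals although the sum was lower. A sum of signals gives most weight to the brightest probes of its list. Of 6 microglial genes, 3, 2 and 1 were lower at the 3 hours, with sums of 18770.8 to 20681.4 in treated and 19980.1 to 21742.2 in control animals. Of 7 oligodendrocyte precursor genes, the most common dividing cells outside the neurogenic zone, 1, 1 and 0 were higher and 0, 0 and 1 lower, with sums of 12984.4 to 14970.8 in treated and 13155.9 to 14142.5 in control animals. Between the first and the ninth hour, the effect changed downwards for 4 of these 7 genes and upwards for 3 (median -0.05). The 2 called were *Gpr17* and *Neu4*, of precursors about to differentiate (-0.41 and -0.5, adjusted p = 0.048 and 0.028), beside 0.827% of all probes. Of 6 dentate granule cell genes, 1, 0 and 1 were higher and 1, 1 and 0 lower at the 3 hours, with sums of 11676.9 to 12505 in treated and 12095.1 to 13592.3 in control animals. Of 6 genes of hippocampal neurons, 0, 2 and 1 were higher and none lower, with sums of 174278.3 to 178214.8 in treated and 170694.2 to 175264.8 in control animals. Among 6 genes of the neighbouring thalamus and habenula, 1 was called higher at the first hour and 1 lower at the ninth. Called or not, 5 of the 6 were higher at the first hour (median 0.19), 4 at the fifth (0.02) and 3 at the ninth (-0.01). From the first hour to the fifth and to the ninth, the effect moved down in all 6 (medians -0.16 and -0.23) with no call. The sums at hours 1, 5 and 9 were 2944.7, 2450.7 and 2422.9 in treated and 2389.3, 2358.1 and 2452.8 in control animals. For 5 Cajal-Retzius genes, 0, 1 and 2 were higher, with sums of 2865.5 to 3076.4 and 2581.3 to 2741.9. None of 7 choroid plexus genes (sums of 1433.4 to 1622.7) and none of 5 genes of subventricular zone neuroblasts (sums of 1151.8 to 1231.9) was called at any of the 3 hours.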

How the data were processed

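Hippocampal RNA of 48 animals was measured on 24 two-colour arrays. The authors deposited each array's scanner output, in which a spot has a Cy3 and a Cy5 intensity, and a table of log2 ratios of Cy5 over Cy3. The deposited intensities were taken as medians per spot and corrected for background (normexp, with an offset of 50 for tests and 0 for printed signals, fold changes and SE), normalised within arrays by loess and between arrays by quantiles. Control spots were left out and spots of 1 probe averaged, which left 56605 probes. Limma's separate channel fit estimated 6 groups with an intraspot correlation of 0.279 and prior degrees of freedom of 4.89, and adjusted p over all probes (Benjamini-Hochberg, 0.05). The number of arrays limits the precision. Accessions were named through RefSeq.

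The members and lists were chosen with earlier results of these data known. All 31 genes are reported; the 12 with the largest change among the called genes are described by group, and of other lists genes with the largest changes, of which 1 is not reported here. Correlations were tested with 100000 permutations. Alternatives covered the offset, background correction, both normalisations, the processed signals, filters on dim probes, the slide, the variance model, within-array ratios and the deposited log2 ratios. The scripts were tested on simulated data. R 4.3.3, limma 3.58.1, statmod 1.5.0, Python 3.11.15 and scipy 1.17.1 were used.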

Additional observations from a re-analysis of the deposited data

Results flagged for a closer look

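Dixon's test marked the highest or lowest animal in 16 of 180 groups (8.89%), where chance alone gives about 1 in 20, or 9.0. *Pcna* was lowest at 2003.5 in a control and 2027.8 in a corticosterone-treated animal of the fifth hour, and *Mcm5* at 87.8 and 85.4. These 4 values came from both animals of 1 array (replicate 7), as did the lowest control values of *Mki67* (33.9) and *Igfbpl1* (40.6) at that hour. A treated animal of the first hour (replicate 8) was highest for *Sox11* (1173.2), *Tyms* (248.9) and *Igfbpl1* (134.5).

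The other animals standing apart were the highest for *Sox4* (1222.2, treated, ninth hour), *Ccnb2* (180.6, control, ninth hour), *Hmgb2* (716.9, control, ninth hour) and *Mcm2* (216.6, control, hour 5). The lowest were those for *Ccnb1* (22.2, treated, first hour), *Cdk2* (24, control, hour 5) and *Mcm6* (671.1, treated, ninth hour). Counted over the 30 genes above background, the treated animal of replicate 8 at the first hour was the highest of its group of 8 in 12 genes. At the ninth hour, the treated animal of replicate 3 was the highest in 12 and that of replicate 2 the lowest in 10, and the control animal of replicate 7 was the highest in 10. The array of replicate 7 at the fifth hour, described above by its low values, held the highest control animal in 11 genes and the highest treated animal in 9. The ninth hour arrays named here were left out only together with the rest of their slide (slide 1 for replicates 2 and 3, slide 3 for replicate 7).

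The corticosterone effect differed between the first and ninth hours for *Top2a* (change of -0.53, SE 0.12, adjusted p = 0.02, limma) and *Ccnd1* (0.38, SE 0.105, adjusted p = 0.043, limma). The *Ccnd1* change was not called with the slide as a block, or without either of the 2 arrays left out one at a time. Neither change was called when any 1 slide was left out.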

How the results depend on the processing

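Of the 34 calls, 7 were kept under every other setting listed for them: *Mcm3* at the first and the fifth hours and from the first to the ninth in treated animals, *Dcx* at the first hour, *Ccnd1* at the ninth hour and from the first to the ninth in treated animals, and *Mcm2* over the same span. Of 447 such tests of a call, 356 kept it, 90 lost it and 1 reversed: *Neurod4* at the fifth hour was -0.009 with the scanner's processed signals. Without slide 1, 2 or 3, there were 3, 2 and 3 calls at the first hour (6 with all slides), beside 11.7, 8.04 and 9.41% of all probes (17.5% with all slides). From the first to the ninth hour in treated animals there were 3, 5 and 5 calls (8 with all slides), beside 1.33, 2.22 and 1.77% (4.02% with all slides). At the fifth hour there were 1 and 4 calls without slides 2 and 3, beside 12.7 and 7.27% of all probes. At the ninth there were 1 and 3 without slides 1 and 2, beside 3.28 and 8.43%. With all slides there were 8 calls at each of these hours, beside 18.1 and 14% of all probes. For hour 9 against hour 1, 2 genes were called for a change of effect. There were 0 without any 1 slide, and 1 with no offset, with processed signals, among probes of signal 50 or more, with the slide as a block and with the deposited log ratios. In control animals 1 gene was called from the first to the ninth hour without slide 2 or 3. The single call of treated animals from the first to the fifth hour went to 0 without slide 2 or 3, and that from the fifth to the ninth to 0 without any 1 slide. The cause was not tested, though fewer arrays remained.

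Leaving out 2 arrays was chosen after seeing the data. Without replicate 7 of the fifth hour or replicate 8 of the first, 1 call remained in the change of effect (*Top2a*), and without the latter 2 genes (*Sox11* and *Mcm2*) were called in control animals. The test on log ratios within arrays, which pairs the 2 animals of an array, called 4, 8 and 7 genes at hours 1, 5 and 9, against 6, 8 and 8. Of all probes, it called 18.2, 18.6 and 13.8%, against 17.5, 18.1 and 14%. Dyes were never swapped, and genes near background give the least certain values.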
